A study of Mus musculus with 18 samples.

Results

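The 32 genes described here encode enzymes and carriers of the tricarboxylic acid (TCA) cycle, the enzyme that makes itaconate, and the shuttles that pass reducing equivalents of cytosolic NADH into mitochondria. They were taken by gene symbol from the deposited table, and all 32 were found among its 21380 gene identifiers. RNA was sequenced from macrophages grown from mouse bone marrow over 7 days in culture, with 30 ng/mL macrophage colony-stimulating factor and 15% serum added to the medium. Marrow came from wild-type (WT) mice or from Ldha knockout (KO) mice, which lack the A chain of lactate dehydrogenase by their label, and the cells of each genotype were left untreated, given interferon gamma (IFN-gamma) for 24 h or given interleukin 4 (IL-4) for 24 h. The 6 groups were thus untreated WT, untreated KO, WT with IFN-gamma, KO with IFN-gamma, WT with IL-4 and KO with IL-4, each with 3 libraries from separate animals, and all 6 animals are represented in every treatment. The series title describes the knockout as specific to macrophages. The labels used here give no Cre driver, strain or age.

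Lactate dehydrogenase turns pyruvate into lactate and in doing so returns NADH to NAD+. Pyruvate that is not reduced can enter the mitochondrial cycle through the pyruvate dehydrogenase complex, and cytosolic NADH can instead be reoxidised through the malate-aspartate shuttle or the glycerol phosphate shuttle. Activated macrophages divert cis-aconitate from the cycle to itaconate, a metabolite known to inhibit succinate dehydrogenase and to restrain inflammatory gene expression.

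Ldha in KO stood at 20.0% of the WT mean without cytokine, 25.6% under IFN-gamma and 17.5% under IL-4, and every KO library lay below every WT library of its treatment. Ldhb, the other main subunit gene, was not called different between genotypes in any treatment. Lyz2, the myeloid lysozyme gene, stood at 0.124% of the WT mean in untreated KO cells, 0.0866% with IFN-gamma and 0.133% with IL-4. Every comparison of KO with WT below thus joins lower Ldha with lower Lyz2, and the part of each was not tested. Libraries held 9.77 to 49.5 M reads (median 30.9 M), and values below are normalized counts, that is, reads divided by a size factor per library. The summed level of 4 genes that mark the IFN-gamma state (Nos2, Cxcl9, Irf1 and Ciita) was 1460 to 1995 in untreated and 291456 to 316348 in IFN-gamma libraries. That of 4 genes that mark the IL-4 state (Arg1, Retnla, Chil3 and Mrc1) was lower in KO than in WT. It was 10321 to 14063 in WT and 5782 to 7814 in KO when untreated, and 68226 to 77233 in WT and 36889 to 45687 in KO with IL-4. WT IFN-gamma replicate 1 stood apart from replicates 2 and 3 of its group, with a chi-square per gene of 55.1 and 60.5 against them, where those 2 gave 4.33 against each other. Pairs with IL-4 reached similar values, 43.3 to 59.4 among the WT libraries and 56.7 between KO replicates 1 and 3. Values without WT IFN-gamma replicate 1 are given beside the results it moves.

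Markers of other cell types were low but moved with the groups. Of 10 stromal or fibroblast markers, 8 were in the table, and their summed level was 273 to 725 in untreated WT, 593 to 2171 in untreated KO, 207 to 379 in WT with IFN-gamma, 308 to 1176 in KO with IFN-gamma, 821 to 1920 in WT with IL-4 and 887 to 2094 in KO with IL-4. The 3 of 5 dendritic cell markers in the table summed to 662 to 1166 in WT and 244 to 324 in KO with IFN-gamma, against 5.85 to 24.3 in untreated cells. The 3 of 7 neutrophil markers in the table summed to at most 65.2 in any library, that value being in KO with IFN-gamma. Summed markers of B cells (3 of 5 in the table) were at most 60.6. Those of T or NK cells (1 of 5), erythroid cells (1 of 5) and mast cells or basophils (1 of 4) were at most 14.7, each resting on 1 gene. The part of these cells in the results below was not tested, apart from a fit with the stromal sum as a covariate. In bulk RNA, fewer cells of a type and less RNA per cell cannot be told apart.

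All 32 members passed the filter on low values (3 or more libraries with a normalized count of 10 or above). Per kilobase of exon, Acod1 had the highest mean level over all libraries, at 20491 normalized counts per kilobase. The IFN-gamma libraries carry that mean, and in untreated WT Acod1 stood at 688 and Idh1, then the highest, at 3058 normalized counts per kilobase. The next members over all libraries were Idh1 at 2582, Glud1 at 2312, Mdh1 at 2076 and Got1 at 1821 normalized counts per kilobase. The lowest were Suclg2 at 58.1, Gpd1 at 4.9 and Nnt at 1.2 normalized counts per kilobase. Nnt ranged from 0 to 18.2 normalized counts over the 18 libraries and Gpd1 from 3.93 to 36.1, so small changes in either were not detectable at these low counts.

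**Figure D1:**
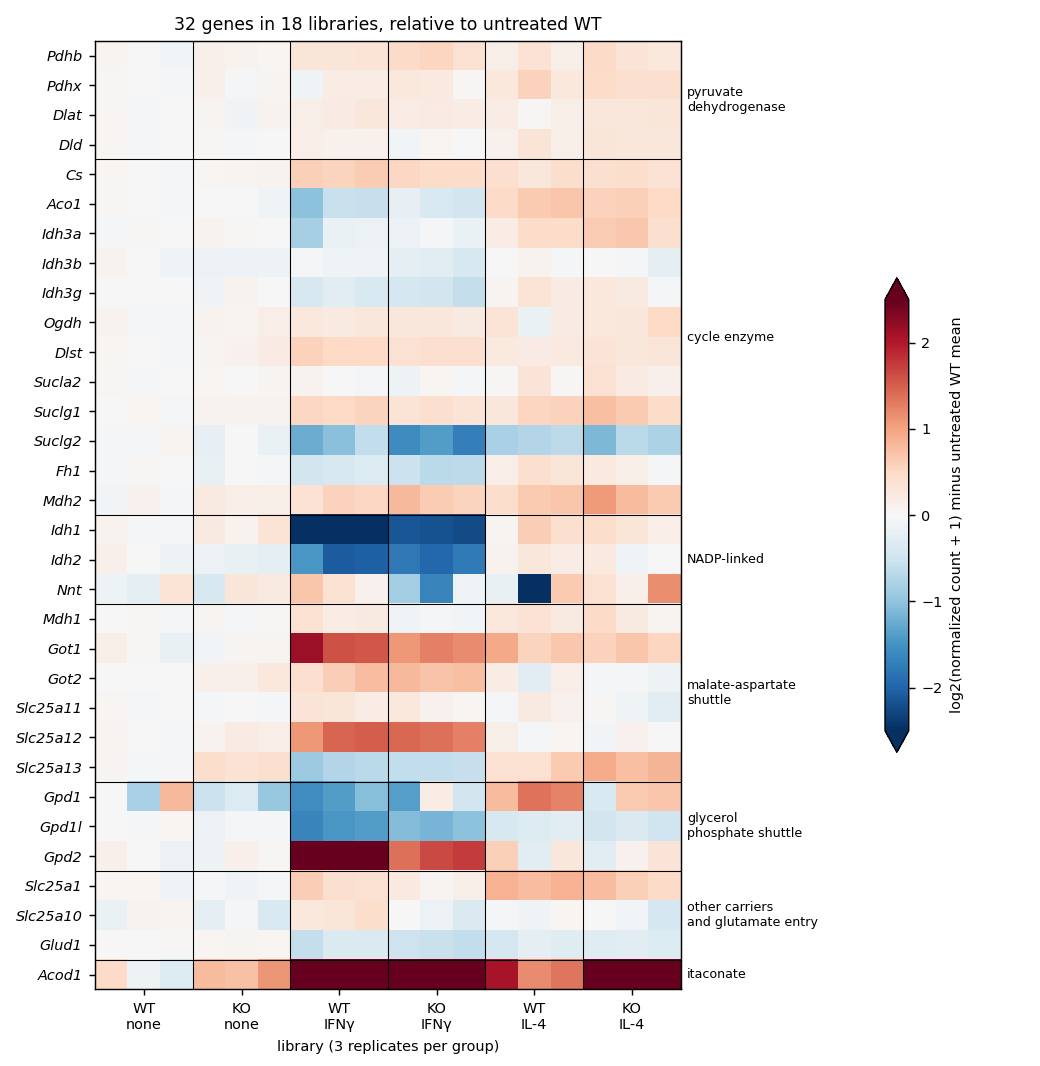
Each cell is log2(normalized count + 1) of a member (vertical axis, grouped by role) in a library (horizontal axis, 3 replicates per group), minus the mean of the untreated WT libraries; colours stop at 2.5 in either direction, and IFNγ stands for IFN-gamma. Idh1 and Idh2 are blue and Acod1, Gpd2, Got1 and Slc25a12 are red in all 6 IFN-gamma libraries.

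Few members differed between KO and WT in untreated cells. A member is called here when its Benjamini-Hochberg adjusted p over the 14288 genes tested is under 0.05 in limma, and changes are log2 differences ± SE on the log2(normalized count + 1) scale. In untreated cells 2 of 32 members were called higher in KO, where 1.46% of all genes were, and 0 were called lower, where 0.525% were (3 members had an unadjusted p under 0.05). With IFN-gamma 3 were higher, against 14.3% of all genes, and 7 were lower, against 13.6%. With IL-4 2 were higher, against 3.46%, and 0 were lower, against 3.13% (8 members had an unadjusted p under 0.05). Shares of all genes at that unadjusted p were not counted. The median KO minus WT difference of the members was 0.03 without cytokine, -0.09 with IFN-gamma and -0.03 with IL-4, and that of all genes was 0.01 in each. No member was called in the same direction in all 3 treatments, and 20 were called in none. Without WT IFN-gamma replicate 1, 2 were higher and 7 lower with IFN-gamma.

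**Figure D2:**
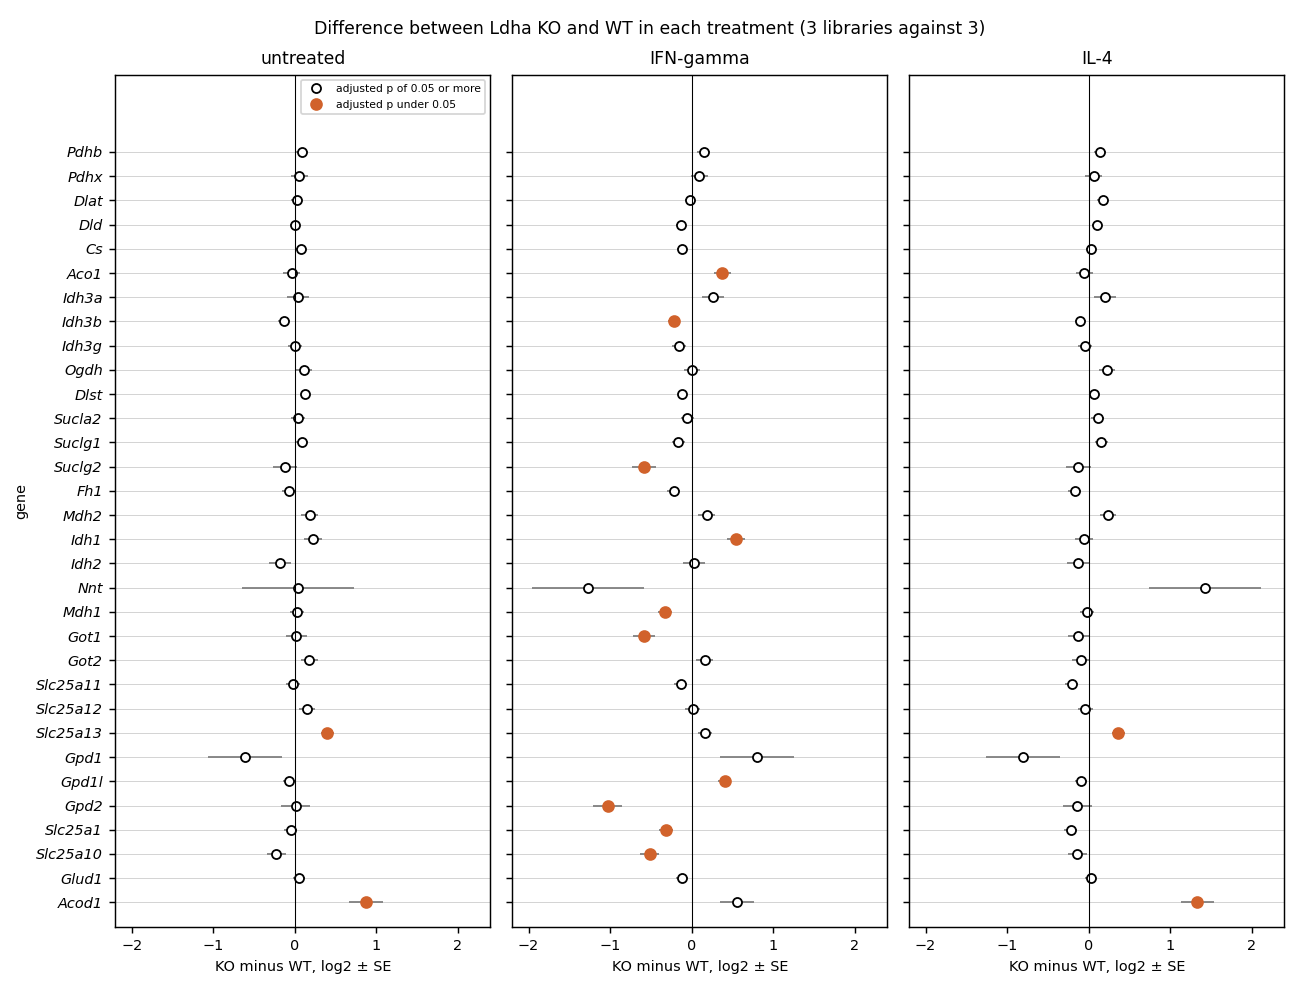
KO minus WT difference of each member (log2 ± SE, 3 libraries against 3) in untreated, IFN-gamma and IL-4 cells; filled points had an adjusted p under 0.05 in limma. Of the 32 members, 10 are filled with IFN-gamma and 2 in each of the other panels.

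IFN-gamma moved most members, in both directions and in both genotypes. In WT 16 of 32 were higher than in untreated cells, where 31.4% of all genes were, and 11 were lower, where 31.1% were. In KO 12 were higher, against 28.3% of all genes, and 9 were lower, against 27.5%. The split depended on the scaling. With quantile normalization it was 8 higher and 13 lower in WT and 6 higher and 13 lower in KO, and with TMM factors 13 and 11 in WT and 10 and 10 in KO. The median change of the members was 0.23 in WT and 0.06 in KO, against -0.01 over all genes in each genotype. Without WT IFN-gamma replicate 1 the WT counts were 14 higher and 10 lower.

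IL-4 mostly raised the members it moved. In WT 16 were higher than in untreated cells, against 16.3% of all genes, and 3 were lower, against 14.0%. In KO 15 were higher, against 15.8%, and 3 were lower, against 14.5%. The median change of the members was 0.21 in WT and 0.24 in KO, against -0.01 and 0.00 over all genes. The 16 in WT became 11 with quantile normalization, 10 without WT IL-4 replicate 2 and 10 with the stromal sum as a covariate, a sum that was 273 to 725 in untreated WT and 821 to 1920 in WT with IL-4. Calls over all genes, in either direction, were 4375, 4027 and 3587 in that order, against 4332 in the main fit. With that covariate the WT calls of Pdhb, Pdhx, Fh1, Idh3a, Idh1 and Mdh1 and the KO call of Mdh1 were lost. IFN-gamma and IL-4 changes of a genotype share the same untreated libraries and are therefore given side by side only. Nnt and Sucla2, the ATP-forming succinyl-CoA ligase subunit, were called in none of the comparisons in limma, although alternatives called Nnt once and Sucla2 in some.

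**Figure D3:**
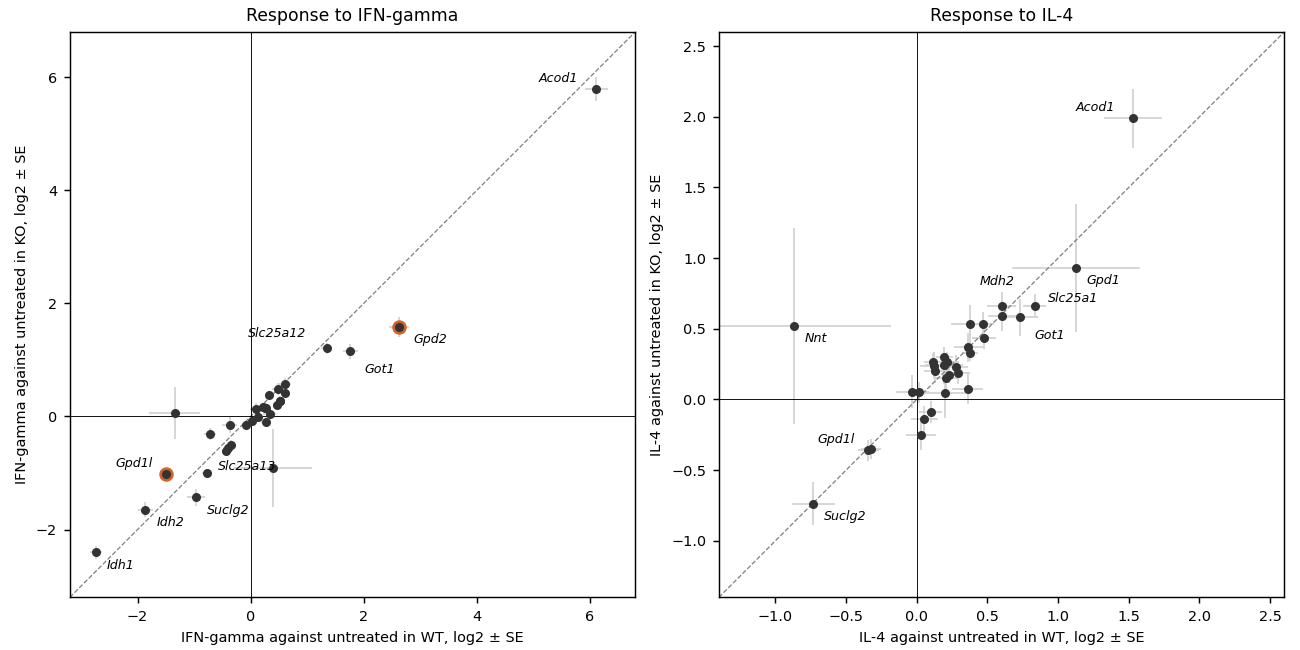
Change of each member with IFN-gamma (left) and IL-4 (right) against untreated cells, in WT (horizontal axis) and KO (vertical axis), as log2 ± SE; the dashed line marks equal change, and the 2 members drawn as larger orange points, Gpd2 and Gpd1l, differed in their IFN-gamma response at an adjusted p under 0.05 in limma. Acod1 lies farthest from 0 in both panels, near 6 in each genotype with IFN-gamma.

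The IFN-gamma response differed between genotypes for 2 members. The difference (KO response minus WT response) was called higher for 1 member, against 4.3% of all genes, and lower for 1, against 4.84%. These were Gpd1l and Gpd2 of the glycerol phosphate shuttle. Over all 32 members, called or not, 23 differences were negative, the median was -0.13 against 0.00 over all genes, and 11 members had an unadjusted p under 0.05. How many of all genes were negative or reached that unadjusted p was not counted. Because the libraries of an animal are paired across treatments, a fit with the animal as a replicate block was also made. It called 6 members, 2 higher and 4 lower, and 2073 of all 14288 genes, against 1307 in the main fit. The added members were Aco1 (0.41, adjusted p = 0.034), Got1 (-0.61, adjusted p = 0.00186), Mdh1 (-0.36, adjusted p = 0.0457) and Dlst (-0.24, adjusted p = 0.0436). The IL-4 response differed for 0 members in limma, where 0.007% of all genes were higher and 0.0% lower. No member reached an unadjusted p under 0.05 for it, and edgeR and DESeq2 on recovered reads also called 0.

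Acod1 encodes aconitate decarboxylase 1, the mitochondrial enzyme that makes itaconate. The gene lies on the plus strand at chr14:103046977-103056573 (GRCm38). It read 2439, 1596 and 1376 normalized counts in the 3 untreated WT libraries and 3045, 2901 and 3737 in the KO libraries. With IFN-gamma it read 112986, 128706 and 122396 in WT and 183258, 167332 and 183448 in KO. With IL-4 it read 7348, 3964 and 4429 in WT and 10567, 13723 and 14213 in KO. KO libraries lay above WT libraries without overlap in all 3 treatments, and both cytokines lay above untreated cells without overlap in each genotype.

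The IFN-gamma change of Acod1 was 6.11 ± 0.21 in WT (69.2-fold, adjusted p = 6.82e-14) and 5.79 ± 0.21 in KO (55.4-fold, adjusted p = 1.8e-13). With IL-4 it rose by 1.53 ± 0.21 in WT (2.89-fold, adjusted p = 1.98e-05) and by 1.99 ± 0.21 in KO (3.97-fold, adjusted p = 9.51e-07). The difference between genotypes was not called for either response (adjusted p = 0.558 for IFN-gamma and 0.97 for IL-4). The genotype difference was 0.87 ± 0.21 when untreated (1.83-fold, adjusted p = 0.0333), 0.55 ± 0.21 with IFN-gamma (adjusted p = 0.0539, not called) and 1.33 ± 0.21 with IL-4 (2.52-fold, adjusted p = 0.000792, or 0.0528 with only the libraries compared). The untreated call was lost on leaving out WT replicate 2 or 3 or any KO replicate, with adjusted p up to 0.2. The IFN-gamma difference ran from adjusted p = 0.0149 to 0.141 over 17 alternatives and passed in 5 of them.

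The bases before the start of Acod1 are shown with those of Gpd2 and Gpd1l, since these genes carried the strongest induction and the called differences in response. The sequences are RefSeq's for GRCm38.p6, 5′ to 3′ on the gene's strand, and end before both the RefSeq start and the start in the deposited table. Capitals mark matches to AANNGAAA (core of the interferon regulatory factor site) or TGACNNNGC (antioxidant response element), searched on both strands.
Acod1, chr14:103046762-103046976, plus strand: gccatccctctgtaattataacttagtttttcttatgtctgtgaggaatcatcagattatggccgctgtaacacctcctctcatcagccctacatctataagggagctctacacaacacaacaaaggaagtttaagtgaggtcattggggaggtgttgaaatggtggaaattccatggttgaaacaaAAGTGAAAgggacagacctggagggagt
Gpd2, chr2:57237428-57237634, plus strand: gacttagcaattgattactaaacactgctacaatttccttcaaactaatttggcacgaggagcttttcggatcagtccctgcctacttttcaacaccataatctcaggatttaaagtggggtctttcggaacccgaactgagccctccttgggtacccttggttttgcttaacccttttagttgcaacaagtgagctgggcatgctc
Gpd1l, chr9:114933988-114934237, minus strand: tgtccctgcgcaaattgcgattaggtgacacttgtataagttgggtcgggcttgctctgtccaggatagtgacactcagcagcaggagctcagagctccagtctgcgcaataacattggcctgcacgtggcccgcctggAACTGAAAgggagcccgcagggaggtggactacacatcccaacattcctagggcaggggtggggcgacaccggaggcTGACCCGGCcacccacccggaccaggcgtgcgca

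In the 250 bases before each RefSeq start, AANNGAAA occurred in 21.3% of 32851 mouse windows and in 8 of 36 windows of the 29 members that were matched. These belonged to 7 members, Acod1, Cs, Dlat, Gpd1l, Idh3b, Ogdh and Suclg2. Of these, Acod1, Cs and Dlat rose and Gpd1l and Suclg2 fell with IFN-gamma in both genotypes. Both calls of Dlat were lost with TMM factors. TGACNNNGC occurred in 10.2% of all windows and in those of Dlst, Gpd1l, Idh3g and Sucla2. TTCNNNNGAA, the spacing preferred by STAT6, the factor downstream of IL-4, occurred in 5.85% of all windows and in those of Fh1 and Idh3b. The motifs were chosen with the expression results known and can overlap one another. A match describes letters only, and no match says only that these letters are not in this window.

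Gpd2 and Gpd1l, on opposite sides of the glycerol phosphate shuttle, moved in opposite directions with IFN-gamma, and both moved less in KO. Gpd2 encodes the mitochondrial FAD-linked glycerol-3-phosphate dehydrogenase, which passes electrons to the respiratory chain. It lies on the plus strand at chr2:57237635-57370719. It read 1149, 1056 and 953 normalized counts in untreated WT, 961, 1149 and 1072 in untreated KO, 7501, 6032 and 6000 in WT with IFN-gamma and 2737, 3283 and 3549 in KO with IFN-gamma. The untreated libraries of the genotypes overlapped, whereas every IFN-gamma KO library lay below every IFN-gamma WT library. Gpd2 rose 6.16-fold in WT (2.62 ± 0.18, adjusted p = 7.13e-10) and by less in KO (1.58 ± 0.18, adjusted p = 6.83e-07). With IFN-gamma, KO was lower than WT by 1.03 on the log2 scale (SE 0.18, adjusted p = 0.000446), and the responses differed by -1.04 ± 0.25 (adjusted p = 0.016). Without WT IFN-gamma replicate 1 the difference in response was -0.94 (adjusted p = 0.0376), and it passed in all 23 alternatives. With IL-4, Gpd2 read 869 to 1579 in WT and 875 to 1318 in KO and was not called.

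Gpd1l encodes a cytosolic NAD-linked enzyme related to glycerol-3-phosphate dehydrogenase 1. It lies on the minus strand at chr9:114899341-114933987. It read 1994, 1920 and 2050 normalized counts in untreated WT, 1805, 1921 and 1934 in untreated KO, 630, 725 and 757 in WT with IFN-gamma and 933, 881 and 971 in KO with IFN-gamma. All IFN-gamma libraries lay below the untreated libraries, and the KO libraries with IFN-gamma lay above those of WT. It fell to 35.4% of the untreated mean in WT (SE 0.08 on the log2 scale, adjusted p = 1.12e-11) and by 1.02 ± 0.08 to 49.2% in KO (adjusted p = 2.37e-09). The responses differed by 0.48 ± 0.11 (adjusted p = 0.00905), and by 0.40 without WT IFN-gamma replicate 1 (adjusted p = 0.0148). KO was higher than WT with IFN-gamma by 0.40 ± 0.08 (adjusted p = 0.000786). IL-4 lowered Gpd1l in both genotypes, by 0.34 ± 0.08 in WT (adjusted p = 0.00197) and by 0.36 ± 0.08 in KO (adjusted p = 0.00125). Gpd1, the cytosolic enzyme of the classical shuttle, read 3.93 to 36.1 normalized counts and was called in WT with IFN-gamma alone (-1.34 ± 0.45, adjusted p = 0.0161), a call lost without untreated WT replicate 3 (adjusted p = 0.106).

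**Figure D4:**
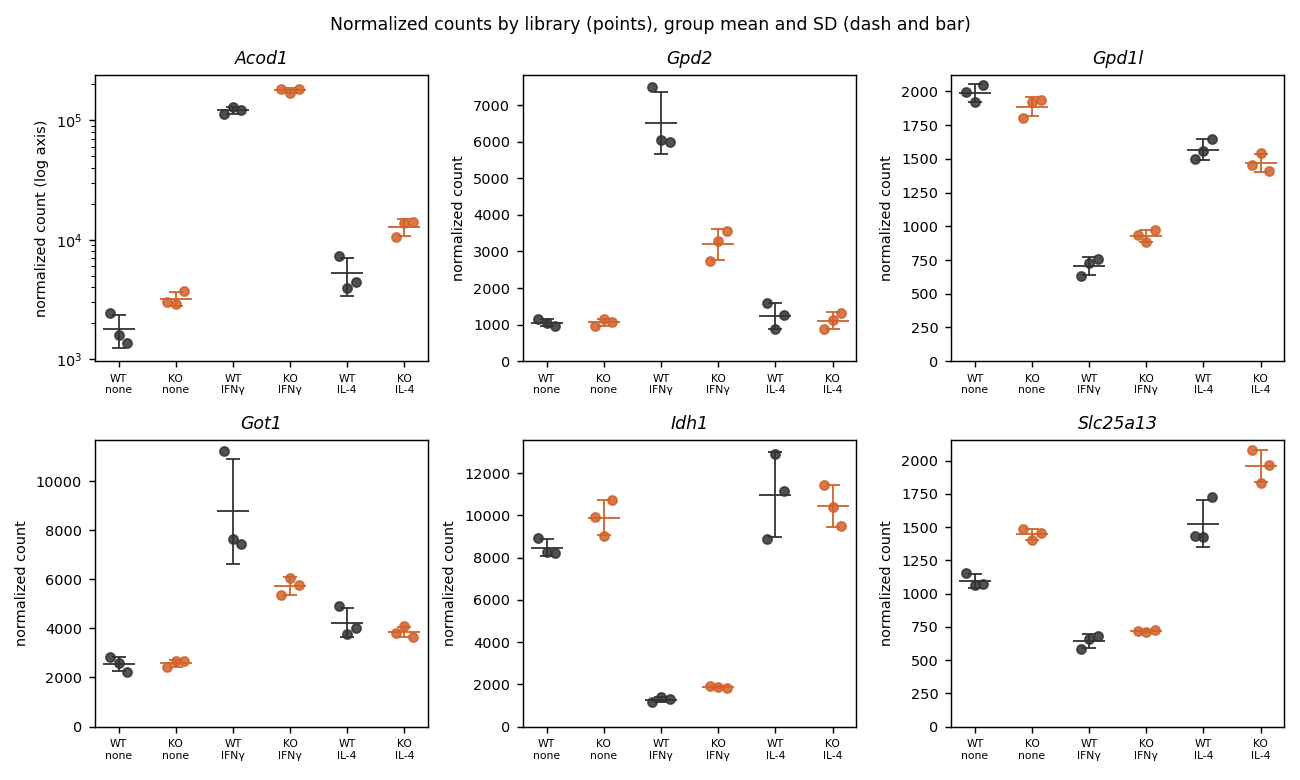
Normalized counts of 6 members in every library (points), with the group mean (dash) and SD (bar, n = 3), in WT (dark) and KO (orange); the axis of Acod1 is logarithmic, none stands for untreated and IFNγ for IFN-gamma. Gpd2 of KO sits at 2737 to 3549 with IFN-gamma, below the WT libraries at 6000 to 7501, while the untreated genotypes overlap.

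Of the 6 malate-aspartate shuttle genes, 5 rose and 1 fell with IFN-gamma in WT, and 3 rose and 1 fell in KO. Among all genes 31.4% rose and 31.1% fell in WT, and 28.3% rose and 27.5% fell in KO. Got1 encodes the cytosolic aspartate aminotransferase. It read 2826, 2591 and 2242 normalized counts in untreated WT, 2414, 2667 and 2658 in untreated KO, 11241, 7647 and 7443 in WT with IFN-gamma and 5354, 6056 and 5792 in KO with IFN-gamma. KO libraries with IFN-gamma lay between the untreated and the WT IFN-gamma libraries without overlap. Got1 rose by 1.76 ± 0.13 in WT (adjusted p = 2.67e-09) and by 1.15 ± 0.13 in KO (adjusted p = 8.38e-07), and KO was lower with IFN-gamma by 0.59 on the log2 scale (SE 0.13, adjusted p = 0.00337). Without WT IFN-gamma replicate 1, the highest library, that difference was -0.40 (adjusted p = 0.0141). The responses differed by -0.61 ± 0.19 (adjusted p = 0.0512), which did not pass. It passed in 9 of 23 alternatives, the animal block among them, over which the adjusted p ranged from 0.00186 to 0.138. IL-4 raised Got1 by 0.73 ± 0.13 in WT (adjusted p = 0.000412) and 0.58 ± 0.13 in KO (adjusted p = 0.00266).

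The 2 aspartate-glutamate carriers, which set the direction of the shuttle, moved apart with IFN-gamma. Slc25a12 (aralar) read 1501, 1419 and 1386 normalized counts in untreated WT and 3032, 3931 and 4087 with IFN-gamma, and 1518, 1654 and 1613 in untreated KO and 3886, 3706 and 3457 with IFN-gamma. It rose by 1.35 ± 0.10 in WT and by 1.21 ± 0.10 in KO (adjusted p = 1.16e-09 and 6.66e-09) and was not called with IL-4. Slc25a13 (citrin) read 1154, 1063 and 1070 in untreated WT and 1484, 1400 and 1453 in untreated KO, with no overlap. With IFN-gamma it read 583, 659 and 683 in WT and 715, 710 and 730 in KO, and with IL-4 1430, 1423 and 1729 in WT and 2077, 1833 and 1969 in KO. KO libraries lay above WT libraries in every treatment. Slc25a13 fell with IFN-gamma to 58.6% of the untreated mean in WT and 49.7% in KO (SE 0.08 on the log2 scale, adjusted p = 3.18e-07 and 1.27e-08) and rose with IL-4 by 0.47 ± 0.08 and 0.44 ± 0.08 (adjusted p = 0.000307 and 0.000598).

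The KO minus WT difference of Slc25a13 was 0.40 ± 0.08 when untreated (1.32-fold, adjusted p = 0.0157), 0.17 ± 0.08 with IFN-gamma (adjusted p = 0.157) and 0.36 ± 0.08 with IL-4 (1.29-fold, adjusted p = 0.0148). The untreated call was lost without WT replicate 2 or 3 or KO replicate 1 or 3, with adjusted p up to 0.0979, and with the stromal sum as a covariate (adjusted p = 0.0711). The IL-4 call was lost without KO replicate 1 (adjusted p = 0.0705) and with only the libraries compared (adjusted p = 0.2).

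The remaining shuttle genes changed less. Mdh1, the cytosolic malate dehydrogenase, read 4851, 4943 and 4745 normalized counts in untreated WT and 6334, 5483 and 5663 with IFN-gamma, and 5099, 4775 and 4968 in untreated KO and 4588, 4653 and 4649 with IFN-gamma. It rose in WT by 0.26 ± 0.08 (adjusted p = 0.0119), a call lost without WT IFN-gamma replicate 1 (adjusted p = 0.0614) and a direction that turned with quantile normalization. In KO it changed by -0.10 ± 0.08 (not called, but -0.39 with quantile normalization, adjusted p = 0.000882), and KO was lower than WT with IFN-gamma by 0.33 on the log2 scale (SE 0.08, adjusted p = 0.0078). Got2, the mitochondrial aminotransferase, rose with IFN-gamma by 0.60 ± 0.10 in WT and 0.58 ± 0.10 in KO (adjusted p = 7.53e-05 and 0.00013). Slc25a11, the oxoglutarate-malate carrier, rose in WT by 0.27 ± 0.08 (adjusted p = 0.00736), also turned by quantile normalization, and was not called in KO (0.16 ± 0.08, or -0.09 with quantile normalization). With IL-4, Mdh1 rose by 0.28 ± 0.08 and 0.23 ± 0.08 in WT and KO (adjusted p = 0.0186 and 0.0463), and Got2 and Slc25a11 were not called. Mdh1 overlaps Wdpcp, Slc25a11 overlaps Rnf167 and Idh3b overlaps Nop56 on the opposite strand. The sources used here do not state whether counting took strand into account, so the values of these 3 members are uncertain.

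The NADP-linked isocitrate dehydrogenases had the most negative IFN-gamma changes of the 32 members in both genotypes. Idh1, the cytosolic enzyme and a source of NADPH, read 8944, 8251 and 8226 normalized counts in untreated WT and 1161, 1384 and 1288 with IFN-gamma. In KO it read 9913, 9047 and 10725 in untreated cells and 1919, 1863 and 1804 with IFN-gamma. The KO libraries lay above the WT libraries in both conditions. Idh1 fell by 2.73 ± 0.11 in WT (to 0.151 of untreated, adjusted p = 6.74e-13) and by 2.41 ± 0.11 in KO (to 0.189, adjusted p = 4.25e-12). KO was higher with IFN-gamma by 0.55 ± 0.11 (adjusted p = 0.00147) and by 0.48 without WT IFN-gamma replicate 1 (adjusted p = 0.00843). The untreated difference was 0.22 ± 0.11 (adjusted p = 0.457), and the responses differed by 0.33 ± 0.16 (adjusted p = 0.221).

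Idh2, the mitochondrial NADP-linked enzyme, read 1496, 1391 and 1259 normalized counts in untreated WT and 501, 324 and 334 with IFN-gamma. In KO it read 1243, 1214 and 1183 in untreated cells and 398, 355 and 405 with IFN-gamma. It fell by 1.86 ± 0.13 in WT and 1.65 ± 0.13 in KO (adjusted p = 1.23e-09 and 7.9e-09), and the genotypes overlapped with IFN-gamma. With IL-4, Idh1 rose in WT by 0.36 ± 0.11 (adjusted p = 0.0194), although its libraries at 8902, 12908 and 11147 overlapped the untreated ones. That call was lost without WT IL-4 replicate 2 or 3 (adjusted p = 0.111 and 0.0568) or without untreated WT replicate 2 or 3 (0.0642 and 0.0673). Nnt, the transhydrogenase that makes mitochondrial NADPH from NADH, was not called, with differences of up to 1.43 ± 0.69 at its low level, but with quantile normalization it was lower in KO with IFN-gamma (-1.57, adjusted p = 0.026).

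Cycle enzymes split with IFN-gamma. In WT 5 of 12 rose and 5 fell, against 31.4% and 31.1% of all genes. In KO 4 rose and 4 fell, against 28.3% and 27.5%. The risers in both genotypes were Cs, Dlst, Suclg1 and Mdh2. These rises depended on the scaling in KO, where quantile normalization left Cs at 0.04, Dlst at 0.02, Suclg1 at 0.11 and Mdh2 at 0.22 (adjusted p = 0.583, 0.814, 0.268 and 0.0616), none of them called. In WT it ended the call of Mdh2 (0.18, adjusted p = 0.128). Citrate synthase, Cs, which opens the cycle, read 7053, 6763 and 6640 normalized counts in untreated WT and 10357, 10075 and 10594 with IFN-gamma, with no overlap. In KO it read 7067, 7140 and 7282 untreated and 9762, 9345 and 9424 with IFN-gamma. It rose by 0.60 ± 0.06 in WT and 0.41 ± 0.06 in KO (adjusted p = 5.6e-08 and 8.29e-06). Dlst, the succinyltransferase subunit of the oxoglutarate dehydrogenase complex, read 3310, 3179 and 3125 in untreated WT and 4779, 4526 and 4499 with IFN-gamma, a rise of 0.52 ± 0.05 (adjusted p = 1.98e-07). In KO it rose by 0.28 ± 0.05 (adjusted p = 0.000314). Suclg1, the subunit common to both succinyl-CoA ligases, rose by 0.52 ± 0.08 and 0.27 ± 0.08 in WT and KO (adjusted p = 2.19e-05 and 0.00834). Mdh2, the mitochondrial malate dehydrogenase, rose by 0.48 ± 0.10 in each (adjusted p = 0.00039 and 0.000455).

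Suclg2, the GTP-forming ligase subunit, fell most among the cycle enzymes. It read 400, 397 and 432 normalized counts in untreated WT, 173, 198 and 265 in WT with IFN-gamma, 354, 413 and 366 in untreated KO and 137, 156 and 125 in KO with IFN-gamma. The genotypes overlapped when untreated and did not overlap with IFN-gamma. It fell by 0.97 ± 0.15 in WT and 1.43 ± 0.15 in KO (adjusted p = 2.45e-05 and 2.85e-07), and KO was lower with IFN-gamma by 0.58 on the log2 scale (SE 0.15, adjusted p = 0.00828), a call lost without WT IFN-gamma replicate 3 (adjusted p = 0.0504) or with only the libraries compared (adjusted p = 0.0666). With IL-4 it fell by 0.73 ± 0.15 in WT and 0.74 ± 0.15 in KO (adjusted p = 0.00124 and 0.00109).

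Aco1, the cytosolic aconitase that also acts as an iron-regulatory RNA-binding protein, went down with IFN-gamma and up with IL-4. It read 2297, 2292 and 2202 normalized counts in untreated WT, 1105, 1543 and 1518 under IFN-gamma and 3137, 3567 and 3655 under IL-4. In KO it read 2260, 2268 and 2106 untreated, 1957, 1746 and 1646 under IFN-gamma and 3355, 3405 and 3212 under IL-4. The 3 conditions did not overlap in either genotype. It fell by 0.72 ± 0.10 in WT and 0.31 ± 0.10 in KO with IFN-gamma (adjusted p = 9.84e-06 and 0.0164) and rose by 0.61 ± 0.10 and 0.59 ± 0.10 with IL-4 (adjusted p = 0.000231 and 0.00028). The KO fall was not called without untreated KO replicate 2 (adjusted p = 0.052) or KO IFN-gamma replicate 3 (adjusted p = 0.0748), or with the stromal sum as a covariate (adjusted p = 0.0735). The KO minus WT difference with IFN-gamma, 0.37 ± 0.10 (adjusted p = 0.0129), was 0.22 without WT IFN-gamma replicate 1 (adjusted p = 0.0624) and also lost its call without KO IFN-gamma replicate 1 (adjusted p = 0.0688), with only the libraries compared (adjusted p = 0.0978) and with the stromal sum as a covariate (adjusted p = 0.131).

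Fh1 (fumarase) and Idh3g (a regulatory subunit of the NAD-linked isocitrate dehydrogenase) fell with IFN-gamma in both genotypes, Fh1 by 0.40 ± 0.08 and 0.55 ± 0.08 and Idh3g by 0.35 ± 0.09 and 0.50 ± 0.09 (adjusted p from 1.62e-05 to 0.00187). Idh3a, the catalytic subunit of that enzyme, read 1072, 1144 and 1128 normalized counts in untreated WT and 629, 997 and 1012 with IFN-gamma. Its fall of 0.37 ± 0.14 (adjusted p = 0.0243) rested on replicate 1 of the IFN-gamma group, without which it was -0.15 (adjusted p = 0.18), and its call was also lost without untreated WT replicate 2 or 3. Idh3b, the other regulatory subunit, did not pass with either cytokine, but with quantile normalization it was lower with IFN-gamma in WT (-0.40, adjusted p = 0.000285) and KO (-0.39, adjusted p = 0.000387). In KO its change of -0.16 also passed with the animal block (adjusted p = 0.0486), with TMM factors (adjusted p = 0.0436) and with only the libraries compared (adjusted p = 0.0433). Idh3b was lower in KO with IFN-gamma by 0.21 on the log2 scale (SE 0.07, adjusted p = 0.0363). That call was lost with TMM factors, quantile normalization, no filter on low values, only the libraries compared or the stromal sum as a covariate, without any 1 of the WT replicates given IFN-gamma, or without replicate 2 or 3 of the KO (adjusted p up to 0.155). Ogdh, the first subunit of the oxoglutarate dehydrogenase complex, rose in WT by 0.25 ± 0.10 (adjusted p = 0.0313), a call lost without untreated WT replicate 2 or 3 or WT IFN-gamma replicate 1 or 3, and a direction that turned with quantile normalization.

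With IL-4, 7 of 12 cycle enzymes rose and 1 fell in WT, and 6 rose and 1 fell in KO, the faller being Suclg2. The shares of all genes were 16.3% and 14.0% in WT and 15.8% and 14.5% in KO. Mdh2 read 2787, 3149 and 2869 normalized counts in untreated WT and 3999, 4620 and 4745 with IL-4, and 3418, 3299 and 3254 in untreated KO and 6134, 5084 and 4633 with IL-4. Both genotypes separated without overlap. Mdh2 rose by 0.60 ± 0.10 and 0.66 ± 0.10 (adjusted p = 0.00016 and 5.61e-05) in WT and KO. Suclg1 rose by 0.47 ± 0.08 and 0.54 ± 0.08 (adjusted p = 0.000244 and 5.57e-05), Cs by 0.38 ± 0.06 and 0.33 ± 0.06 (adjusted p = 6.42e-05 and 0.000218) and Dlst by 0.23 ± 0.05 and 0.17 ± 0.05 (adjusted p = 0.00361 and 0.0218). Idh3a rose in WT by 0.38 ± 0.14 (adjusted p = 0.0458) and in KO by 0.53 ± 0.14 (adjusted p = 0.00611). Fh1 rose in WT (0.30 ± 0.08, adjusted p = 0.0105) and did not pass in KO (0.19 ± 0.08, adjusted p = 0.0905), and the difference between these responses was not called. Without WT IL-4 replicate 2, the calls of Fh1, Idh3a, Idh1 and Mdh1 in WT were lost, as were those of Pdhb, Pdhx and Dld described below. Idh3a, Mdh1, Pdhb and Dld in WT also lost theirs without untreated WT replicate 3, as did Idh3a, Pdhb and Dld without untreated WT replicate 2 and Idh3a without untreated WT replicate 1 or WT IL-4 replicate 3. The KO call of Dlst was lost without untreated KO replicate 1 or 2 or KO IL-4 replicate 1, and that of Mdh1 without any 1 untreated KO replicate or KO IL-4 replicate 1 or 2.

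The 4 pyruvate dehydrogenase genes changed little. Pdhb, a subunit of the decarboxylase, read 1745, 1679 and 1600 normalized counts in untreated WT and 2069, 2077 and 2121 with IFN-gamma, a rise of 0.32 ± 0.07 (adjusted p = 0.00122) that was not called with quantile normalization (0.12, adjusted p = 0.183). In KO it read 1830, 1772 and 1733 untreated and 2340, 2419 and 2177 with IFN-gamma, a rise of 0.38 ± 0.07 (adjusted p = 0.000325). Dlat, the acetyltransferase, rose by 0.21 ± 0.06 and 0.17 ± 0.06 in WT and KO (adjusted p = 0.00801 and 0.0302), but with quantile normalization it was 0.01 in KO and turned direction in WT. The WT call was lost with TMM factors, and the KO call was lost with TMM factors and without untreated KO replicate 2 or any KO IFN-gamma replicate. Pdhx, which anchors the dihydrolipoamide dehydrogenase, and Dld, that dehydrogenase itself, were not called with IFN-gamma. Quantile normalization, however, put Dld lower in WT (-0.18, adjusted p = 0.0237) and in KO (-0.25, adjusted p = 0.00301). With IL-4, 3 of the 4 rose in WT (Pdhb, Pdhx and Dld, by 0.20 to 0.36) and all 4 in KO (by 0.26 to 0.37), against 16.3% and 15.8% of all genes. In KO the call of Pdhb was lost without KO IL-4 replicate 1 and that of Pdhx without untreated KO replicate 2. None of the 4 was called between genotypes in any treatment.

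The other carriers and the glutamate gene also moved. Slc25a1, which exports citrate for fatty acid and sterol synthesis, read 2776, 2768 and 2488 normalized counts in untreated WT, 4102, 3533 and 3500 under IFN-gamma and 4914, 4534 and 4874 under IL-4. In KO it read 2632, 2527 and 2584 untreated, 3175, 2799 and 2972 under IFN-gamma and 4573, 4021 and 3718 under IL-4. Untreated libraries lay lowest in both genotypes, and KO lay below WT with IFN-gamma. With IL-4 it rose by 0.84 ± 0.08 in WT (adjusted p = 6.26e-07) and 0.66 ± 0.08 in KO (adjusted p = 7.51e-06). With IFN-gamma it rose by 0.47 ± 0.08 in WT (adjusted p = 8.65e-05) and 0.21 ± 0.08 in KO (adjusted p = 0.042, lost on leaving out any untreated KO replicate or KO IFN-gamma replicate 1 or 3), and KO was lower by 0.31 on the log2 scale (SE 0.08, adjusted p = 0.00903). With quantile normalization neither rise was called (0.19, adjusted p = 0.0664 in WT and 0.0045, adjusted p = 0.968 in KO).

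Slc25a10, the mitochondrial dicarboxylate carrier, read 2389, 2459 and 2686 normalized counts in WT with IFN-gamma and 1974, 1792 and 1534 in KO with IFN-gamma. The groups did not overlap, and KO was lower by 0.51 on the log2 scale (SE 0.12, adjusted p = 0.00356). It rose with IFN-gamma in WT by 0.34 ± 0.12 (adjusted p = 0.0181), a call lost with quantile normalization (0.12, adjusted p = 0.419), with TMM factors, without untreated WT replicate 1 or without WT IFN-gamma replicate 3, and was not called in KO (0.05 ± 0.12). Glud1, the mitochondrial glutamate dehydrogenase, read 11446 to 11691 in untreated WT and 7637 to 8941 with IFN-gamma. It fell with IFN-gamma by 0.44 ± 0.07 in WT and 0.62 ± 0.07 in KO (adjusted p = 2.74e-05 and 6.92e-07) and with IL-4 by 0.32 ± 0.07 and 0.35 ± 0.07 (adjusted p = 0.00191 and 0.000824). It was not called between genotypes in any treatment, except that without WT IFN-gamma replicate 1 it was lower in KO with IFN-gamma (-0.20, adjusted p = 0.0436).

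A list of 41 other genes of the pathway (succinate dehydrogenase, pyruvate dehydrogenase kinases and phosphatases, anaplerotic and glutamine enzymes) had 37 in the table and 33 tested. Between genotypes, 1 was higher and 0 lower in KO when untreated, 5 and 3 under IFN-gamma, and 2 and 1 under IL-4. The shares of all genes were 1.46% and 0.525% when untreated, 14.3% and 13.6% under IFN-gamma, and 3.46% and 3.13% under IL-4. Me1, the cytosolic NADP-linked malic enzyme that makes pyruvate from malate, was higher in KO in all 3 treatments. It read 101, 97.4 and 97.5 normalized counts in untreated WT against 321, 250 and 299 in KO, 187, 232 and 200 against 476, 457 and 475 with IFN-gamma, and 87.4, 98.4 and 90.0 against 345, 280 and 363 with IL-4. The difference was 1.54 ± 0.13, 1.19 ± 0.13 and 1.82 ± 0.13 in that order (adjusted p = 2.01e-06, 4.1e-06 and 1.78e-07). With IL-4, Pcx (pyruvate carboxylase) was higher in KO by 1.31 ± 0.20 (adjusted p = 0.000793) and Pdk2 (a pyruvate dehydrogenase kinase) lower by 0.91 on the log2 scale (SE 0.11, adjusted p = 9.94e-05).

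Among these other genes 12 rose and 12 fell with IFN-gamma in WT, and 11 rose and 9 fell in KO. The shares of all genes were 31.4% and 31.1% in WT and 28.3% and 27.5% in KO. Slc25a22, a mitochondrial glutamate carrier, rose by 1.87 ± 0.11 and 1.90 ± 0.11 and Pdk3 by 1.36 ± 0.11 and 1.44 ± 0.11 in WT and KO. Glul (glutamine synthetase) changed by -2.09 ± 0.15 and -2.32 ± 0.15, both called. With IL-4, 11 rose and 5 fell in WT and 12 rose and 4 fell in KO, against 16.3% and 14.0% of all genes in WT and 15.8% and 14.5% in KO. Acly, the ATP-citrate lyase that acts on citrate exported by Slc25a1, rose by 0.64 ± 0.09 and 0.53 ± 0.09, and Slc13a3, a plasma membrane dicarboxylate transporter, fell by 1.58 ± 0.54 and 2.36 ± 0.54. The response of none of the 33 genes was called different between genotypes in limma, with 3 at an unadjusted p under 0.05 for IFN-gamma and 2 for IL-4. Of all genes, 4.3% were called higher and 4.84% lower for IFN-gamma, and 0.007% and 0.0% for IL-4. Shares of all genes at an unadjusted p under 0.05 were not counted.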

How the data were processed

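Members and lists were chosen with earlier results of these data known. Per the labels' protocols, RNA was taken with Trizol, poly(A)-selected and read on a NextSeq500. STAR 2.5 placed the reads on GRCm38 and HTSeq 0.6 counted them per gene, per the submitters' processing notes. The deposited values are a signal in normalized counts, that is, reads the authors divided by a size factor per library. Whole reads were recovered for 100% of values (tolerance 0.1). Identifiers listed more than once (34) were used once. Log2(normalized count + 1) was modelled in R 4.3.3 by limma 3.58.1 over all 18 libraries (6 group means, trend option, two-sided tests, 12 residual degrees of freedom), with Benjamini-Hochberg adjustment over 14288 genes. Alternatives were a pseudocount of 0.5 or 5, no filter, a mean of at least 50, TMM factors, quantile normalization, edgeR 4.0.16 and DESeq2 1.42.0 on recovered reads, only the libraries compared, a replicate block, each library left out and, added after seeing the data, the stromal sum as a covariate. The replicate block was the animal for treatment responses and the replicate number for comparisons between genotypes. Libraries of one animal correlated at r = 0.0036 to 0.24 across genes after group means were removed (13 of 18 pairs above 0.1), and the pairing comes from the animal codes. Full values are given for called members with the smallest adjusted p and no overlap, and for Acod1. Promoter sequences are RefSeq's, matched by symbol for 29 members.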

Additional observations from a re-analysis of the deposited data

Results flagged for a closer look

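The IFN-gamma response of Gpd1l differed between genotypes by 0.48 (log2, KO minus WT), and that of Gpd2 by -1.04, each by the limma test of the difference itself. Both responses had the same direction in WT and KO and were smaller in KO.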

How the results depend on the processing

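Of 5262 values of the members under an alternative, 127 lost the call, 54 gained it and 5 changed direction while called with or without the alternative. The other 5076 kept their side of the threshold, but values called in neither could cross 0, as did Ogdh (-0.16) and Slc25a11 (-0.09) in KO with IFN-gamma under quantile normalization. The 5 changes of direction, with 1 more in a gene of the pathway list, were all under quantile normalization with IFN-gamma in WT: Dlat -0.0032, Dld -0.18, Ogdh -0.11, Mdh1 -0.10, Slc25a11 -0.0445 and Pdha1 -0.0194. Of these only Dld was called under that normalization (adjusted p = 0.0237), and the cause was not tested. The 2 calls between genotypes with IL-4 fell to 0 when only the 6 libraries compared were fitted, and calls over all 14288 genes fell from 941 to 128. For the difference in IFN-gamma response, the 2 calls became 4 with a mean of at least 50, 5 with DESeq2, 5 with only the libraries compared, 6 with the animal as a replicate block and 4 with the stromal sum as a covariate, whose causes were not tested. Calls over all genes were 1387 of 10850, 1833 of 12349, 1881, 2073 and 1502 in that order, the last 3 of 14288, against 1307 of 14288 in the main fit. The block moved no other count of members called by over 1.5 times. Between genotypes the block was the replicate number, which joins different WT and KO animals, so animal pairing was not tested there. With each library left out in turn, the count of members called between genotypes was between 0 and 2 without cytokine, between 8 and 9 for IFN-gamma and between 1 and 3 for IL-4. The count for IFN-gamma ran from 24 to 27 in WT and 18 to 20 in KO, for IL-4 from 13 to 20 and 15 to 21, and for the difference in response from 2 to 4 with IFN-gamma and stayed at 0 with IL-4. The lowest IL-4 count in WT came without WT IL-4 replicate 2, the shallowest library. Nnt and Gpd1 are limited by their low levels, at most 18.2 and 36.1 normalized counts in any library.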
